A study of Mus musculus with 6 samples.

Results

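A set of 10 genes switched on by growth factor signalling through the MAP kinase ERK, many of which then restrain it, was compared between myotubes and myoblasts. It held 4 dual specificity phosphatases (DUSP1, DUSP4, DUSP5 and DUSP6), 2 Sprouty genes (SPRY1 and SPRY2) and 4 early response genes (EGR1, IER2, IER3 and PHLDA1). Every probe set annotated with just the symbol of such a gene was taken, which gave 19 probe sets for 10 of the 11942 genes with probe sets of their own on the array. Total RNA of 3 myotube and 3 myoblast samples had been labelled with biotin and measured on HG-U133A arrays, where a probe set is a group of short oligonucleotides read as 1 signal. By the series title the cells are C2C12, a mouse line whose dividing myoblasts fuse into myotubes. The labels give 2.5% horse serum as the medium of the myotubes and no medium for the myoblasts. The array was designed for human transcripts while the labels give mouse as the organism. Which species the RNA came from could not be settled, so gene names are those of the human genes. The labels name no separate cultures behind the arrays, and that spread between arrays, which may be technical, is all the p-values rest on.

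ERK is the last kinase of a relay that runs from growth factor receptors through RAS, RAF and MEK. Active ERK enters the nucleus and induces early response genes within minutes, and among its targets are the genes that turn it off: dual specificity phosphatases take the activating phosphates off MAP kinases, and Sprouty proteins block the relay between receptor and RAF. In cultured myoblasts, mitogens that act through this relay favour division, and their withdrawal allows fusion.

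The labels were set against marker genes. All 8 tested myotube markers rose and 8 of 9 dividing cell markers fell in myotubes. Over all 8148 tested genes 5.41% rose and 6.74% fell. CKM and MYOG, also among the 10 myotube markers, were too dim to be tested, and 2 of the 10 lay at or below background on every array. Fibroblast markers moved as well: 6 of 8 rose, and their summed signal ran between 376430 and 592990 in myotubes and between 119700 and 272070 in myoblasts. Of the 4 endothelial and 3 leukocyte genes, 1 and 2 lay at or below background on every array. The part of these cell types in the results was not tested. In bulk RNA, fewer cells of a type and less RNA per cell cannot be told apart.

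Myoblast array 3 is titled Grow and was placed by its description, which is that of the other myoblast arrays but numbers only 2 of them. It had a Pearson correlation of 0.988 with myoblast array 2 over the log2 values of the tested probe sets, while all other pairs of arrays lay between 0.737 and 0.89. Whether myoblast arrays 2 and 3 are independent could not be settled, and the main fit counts each as a replicate. A fit with these 2 arrays averaged is given with the alternatives below. Run records put the myotube arrays on a chip lot and a scan day with no myoblast array, so lot and day cannot be told apart from group. Split at gaps in their numbers, laboratory codes in those records form a first series with the 3 myotube arrays and myoblast array 1. Myoblast arrays 2 and 3 form the second. Myoblast array 1 shared its scan day with myoblast arrays 2 and 3, not with the myotube arrays, and its chip lot with no other array. It correlated at 0.872 and 0.881 with myoblast arrays 2 and 3, and at 0.843, 0.841 and 0.881 with myotube arrays 1, 2 and 3. Its summed signal of myotube markers was 4690.7, against 1348.3 and 1802.7 on myoblast arrays 2 and 3 and 24205 to 27501 in myotubes. For fibroblast markers it was 272070, against 119700 and 128290 on myoblast arrays 2 and 3. The records number all 3 myoblast arrays otherwise than their titles do, and arrays are numbered here by title. The grouping by codes, called laboratory series below, was used as a block. As the second series holds no myotube array, each change with this block compares the 3 myotube arrays with myoblast array 1 alone. A signal was taken as background when it did not exceed the highest control probe set for RNA that was not added, which lay between 251.53 and 1040.2 per array.

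The promoters of the phosphatase genes DUSP1 and DUSP5 are shown because both fell and both carry short motifs through which early response genes are induced. RefSeq sequence of the mouse genome (GRCm38.p6) held a promoter for 6 of the 10 genes, Dusp1, Dusp5, Dusp6, Spry1, Spry2 and Ier3. The 250 bases before the gene start are printed 5′ to 3′ on the gene's strand, chr17:26508473-26508722 (minus strand) for Dusp1 and chr19:53528895-53529144 (plus strand) for Dusp5. Capitals mark cyclic AMP response elements, in full (TGACGTCA) or as their short form TGACG on either strand, and CArG boxes, the sites known to bind serum response factor.
Dusp1: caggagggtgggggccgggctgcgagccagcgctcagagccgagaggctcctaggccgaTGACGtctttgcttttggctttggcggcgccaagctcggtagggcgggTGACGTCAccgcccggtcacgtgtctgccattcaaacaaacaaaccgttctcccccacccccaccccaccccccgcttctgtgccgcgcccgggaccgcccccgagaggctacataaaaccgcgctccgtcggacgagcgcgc
Dusp5: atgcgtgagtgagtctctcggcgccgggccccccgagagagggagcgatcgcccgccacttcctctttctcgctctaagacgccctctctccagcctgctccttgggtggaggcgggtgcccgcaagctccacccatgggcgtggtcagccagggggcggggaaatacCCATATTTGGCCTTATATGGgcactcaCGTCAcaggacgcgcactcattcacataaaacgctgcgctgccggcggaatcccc
Dusp1 held a full element that begins 143 bases before the start, and another short form at 191. Among 32851 mouse promoter windows of this length, 1.55% held the full element on either strand and 17.8% the short form, which lies within the full one. Dusp5 held 2 abutting CArG boxes that begin 82 and 72 bases before the start, a box found in 1.47% of windows, and a short form at 55. Windows were also searched on both strands for TGANTCA (AP-1, in 6.75% of windows), CCGGAAGT (ETS, 2.88%), GCGTGGGCG (EGR1, 0.536%), GGGCGGG (SP and KLF, 23.4%) and TATAAA (12.4%). Of these only GGGCGGG was found, in Dusp1, Dusp5 and Spry1, and the windows of Dusp6, Spry2 and Ier3 held none of the 8 motifs. A match describes letters in a window and is not a measured site.

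Of the 19 probe sets, 16 of 9 genes passed the filter on dim probe sets and were tested. Of these 16, 7 fell (DUSP1 with 2, DUSP5, DUSP6 with 2, SPRY2 and IER2), 1 rose (IER3) and 8 did not pass, by limma at an adjusted p of 0.05. With laboratory series as a block 0 of the 16 passed (6 at an unadjusted p under 0.05). Over all 13300 tested probe sets 6.43% fell and 4.95% rose. The median log2 change of the 16 was -0.74, beside 0.09 for all tested probe sets. In 11 of the 16 every myotube signal lay below every myoblast signal, as in 15.5% of all tested probe sets, and in 2 every myotube signal lay above, as in 17.5%. The dimmer of the 2 DUSP1 probe sets is among the 7 and the 11, and enters the median. It was at or below background in all myotubes and passed the filter through its myoblast signals alone. It could thus enter these counts only as lower, and its fall is no separate support for that of DUSP1. Log2 changes here are on the scale of log2(signal + 197), myotube minus myoblast, which understates changes of dim probe sets, and ± after them is the SE. Folds are taken from these changes, save those with dim signals raised to background, which are taken without the 197.

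**Figure D1:**
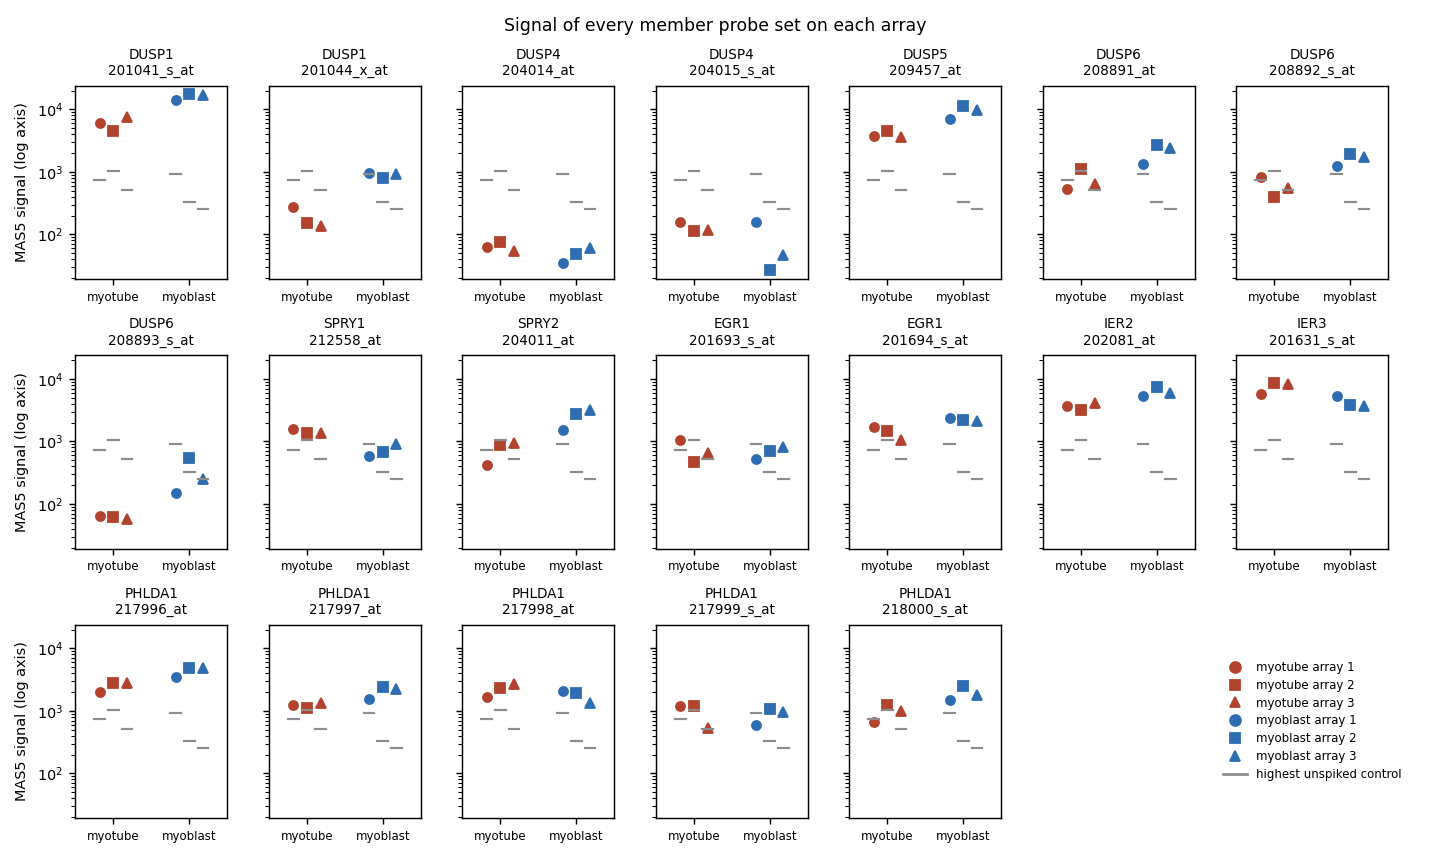
MAS5 signal (log axis) of each of the 19 probe sets on the 3 myotube arrays (red, left) and the 3 myoblast arrays (blue, right), with grey bars at the highest unspiked control of each array. Both probe sets of DUSP4 lie below the bars on all 6 arrays, and the bright probe sets of DUSP1 and DUSP5 lie above them with no overlap between groups.

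Among the phosphatases, DUSP1 and DUSP5 had the smallest adjusted p-values. DUSP1 acts in the nucleus on p38, JNK and ERK. Its bright probe set (201041_s_at) gave 6055, 4461.5 and 7490 on myotube arrays 1, 2 and 3, against 14203, 17267 and 16677 on myoblast arrays 1, 2 and 3. The groups stood well apart. The fall was 2.67-fold (log2 -1.42 ± 0.21, limma adjusted p = 0.00356). A dimmer DUSP1 probe set (201044_x_at) gave 273.92, 153.79 and 135.84 in myotubes and 975.58, 797.69 and 914 in myoblasts. Its myotube signals were all at or below background, so the fall (log2 -1.52 ± 0.38, limma adjusted p = 0.0305) is bounded only as at least 1.22-fold, with dim signals raised to the control. This probe set passed the filter through its myoblast signals alone and could not be tested without any 1 of them, and leaving out myotube array 2 ended its call (limma adjusted p = 0.0776).

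DUSP5 is a nuclear phosphatase that acts on ERK alone among the MAP kinases. It gave 3790.4, 4447 and 3592.2 in myotubes, against 6912.5, 11123 and 9916.9 in myoblasts. Here too the groups did not overlap, and myoblast array 1 stood between the myotubes and the other myoblast arrays. The fall was 2.26-fold (log2 -1.18 ± 0.21, limma adjusted p = 0.00751).

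DUSP6, the cytoplasmic phosphatase of ERK, had 3 probe sets that all ran lower in myotubes without overlap. The first (208891_at) gave 533.65, 1108.9 and 638.48 in myotubes, against 1338, 2711.2 and 2403.8 in myoblasts, a fall of 2.44-fold (log2 -1.29 ± 0.34, limma adjusted p = 0.0351). The second (208892_s_at) gave 825.42, 390.43 and 561.47, against 1250.9, 1901 and 1728.8, a fall of 2.34-fold (log2 -1.23 ± 0.32, limma adjusted p = 0.0345). On each of these 2 probe sets 1 myotube array was at background, array 1 for the first and array 2 for the second, and the folds with dim signals raised to it were 2.56 and 2.04. The third (208893_s_at) lay under the filter, with 64.313, 62.734 and 56.721 in myotubes and 150.01, 542.37 and 247.72 in myoblasts. It exceeded background on myoblast array 2 alone.

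DUSP4, the nuclear phosphatase of ERK and JNK, was not told from background. Its probe sets gave 54.928 to 159.76 in myotubes and 26.713 to 156.14 in myoblasts, below the control on every array. No change of DUSP4 could be measured on these arrays, which does not show that the gene was silent.

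Of the 2 Sprouty genes SPRY2 fell and SPRY1 did not pass. SPRY2 gave 417.98, 869.43 and 957.38 in myotubes, against 1503.6, 2787.8 and 3148.5 in myoblasts. The groups did not overlap, and array 1 was the lowest of its group on both sides. The fall was 2.82-fold (log2 -1.50 ± 0.35, limma adjusted p = 0.0225), with 2 of the 3 myotube signals at background and a fold of 2.63 when these are raised to it. SPRY1 gave 1560, 1356 and 1361.7 in myotubes, against 587.39, 683.54 and 919.06 in myoblasts. Every myotube signal was the higher, yet the change of 0.82 ± 0.28 did not pass (limma adjusted p = 0.0834). Myoblast array 1 was at background for SPRY1. The difference in change between the 2 genes was not tested.

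The early response genes were mixed. IER2, a nuclear protein induced by serum, gave 3700.2, 3146.7 and 4139.8 in myotubes, against 5355.3, 7455.5 and 6020.2 in myoblasts. The groups were apart, and the fall was 1.67-fold (log2 -0.74 ± 0.19, limma adjusted p = 0.0356). IER3, a short-lived protein linked to cell survival, went the other way, with 5777.2, 8670.9 and 8400.3 in myotubes and 5254.3, 3805 and 3659.6 in myoblasts. Myotube array 1 stood just above myoblast array 1. The rise was 1.76-fold (log2 0.81 ± 0.22, limma adjusted p = 0.0393).

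EGR1, a zinc finger transcription factor and the best known immediate early target of ERK, did not pass with either of its probe sets. The brighter one (201694_s_at) gave 1668.4, 1466.8 and 1051.6 in myotubes, against 2384.1, 2181.9 and 2136.7 in myoblasts. These groups did not overlap, and the change was -0.63 ± 0.24 (limma adjusted p = 0.107). The dimmer one (201693_s_at) gave 1069.2, 476.24 and 645.45 in myotubes and 527.3, 712.35 and 823.16 in myoblasts, which overlapped. Its signals on myotube array 2 and myoblast array 1 were at background. Its change of 0.03 ± 0.36 (limma adjusted p = 0.961) turned to -0.18 after quantile normalization and to -0.001 with 75th percentile scaling.

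PHLDA1, a pleckstrin homology domain protein induced by ERK, had 5 probe sets, and none passed. The brightest (217996_at) gave 2035.7, 2793.4 and 2803.5 in myotubes, against 3468.4, 4839.2 and 4875.4 in myoblasts. Its groups were apart, with a change of -0.74 ± 0.21 and a limma adjusted p of 0.0504. Another pair, 217997_at and 218000_s_at, were also lower without overlap, with changes of -0.65 ± 0.25 and -0.87 ± 0.30 (limma adjusted p = 0.116 and 0.0845). The last 2, 217998_at and 217999_s_at, overlapped and had changes of 0.29 ± 0.25 and 0.10 ± 0.36 (limma adjusted p = 0.45 and 0.859). The second of these turned to -0.04 after quantile normalization. Myoblast array 1 was at background for 217999_s_at, and myotube array 1 for 218000_s_at. The probe sets of this gene thus differed in sign, and which transcripts each reads was not settled.

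**Figure D2:**
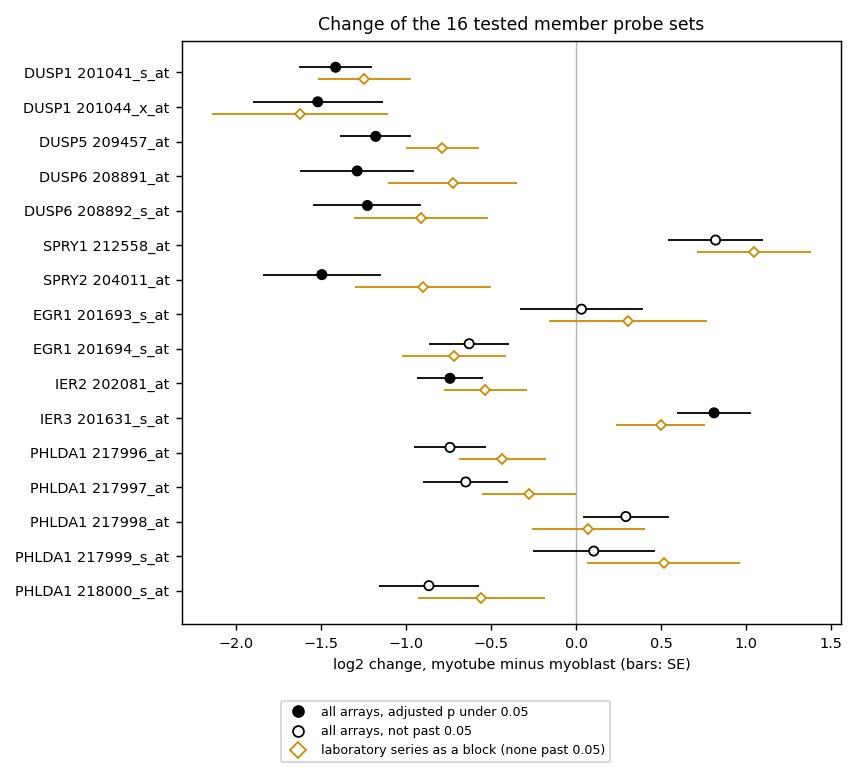
Log2 change, myotube minus myoblast, of the 16 tested probe sets with all arrays (circles, filled where the limma adjusted p is under 0.05) and with laboratory series as a block (diamonds), with bars for the SE. With all arrays 8 circles are filled, and each diamond lies on the same side of 0 as its circle.

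Myoblast array 1 was the lowest of the myoblasts on 6 of the 7 probe sets that fell, so the falls were smaller against it than against myoblast arrays 2 and 3. For SPRY2 the mean of myoblast arrays 2 and 3 was 3.97 times the myotube mean, and myoblast array 1 was 2.01 times it. The same ratios were 3.36 and 1.76 for DUSP6 (208891_at), 2.67 and 1.75 for DUSP5, and 2.83 and 2.37 for the bright DUSP1 probe set. The block on laboratory series leaves myoblast array 1 as the only myoblast array that the change is taken against. With laboratory series as a block all 16 changes kept their sign and none was called by limma. That fit called 1.00% of all probe sets lower and 1.54% higher. Within it the changes were -1.25 for DUSP1 (limma adjusted p = 0.0555), -0.79 for DUSP5 (0.104), -0.90 for SPRY2 (0.289), -0.53 for IER2 (0.298) and 0.50 for IER3 (0.39). Those of DUSP6 were -0.73 and -0.91 (limma adjusted p = 0.384 and 0.278). For SPRY1 the change grew to 1.05 (limma adjusted p = 0.153).

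When arrays were left out in turn, the falls of DUSP1 (201041_s_at) and DUSP5 passed each time, their limma adjusted p reaching at most 0.0269 and 0.0439. DUSP6 was called without myoblast array 1, and its second probe set also without myotube array 1. Left-out arrays ended the call of the first DUSP6 probe set in 5 of 6 cases and of the second in 4 of 6 (limma adjusted p up to 0.167 and 0.187). SPRY2, IER2 and IER3 were each called in 2 of 6 cases, always including the one without myoblast array 1, and their highest limma adjusted p was 0.113, 0.192 and 0.159. Without myoblast array 1, 3 probe sets of PHLDA1 passed as lower (217996_at, 217997_at and 218000_s_at, limma adjusted p = 0.0152, 0.0249 and 0.0366). That fit called more throughout, 1660 of all 13300 tested probe sets lower and 1804 higher, against 855 and 658 with all arrays. Its only myoblast arrays are 2 and 3, whose independence could not be settled, so its p-values may rest on a single sample counted again.

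**Figure D3:**
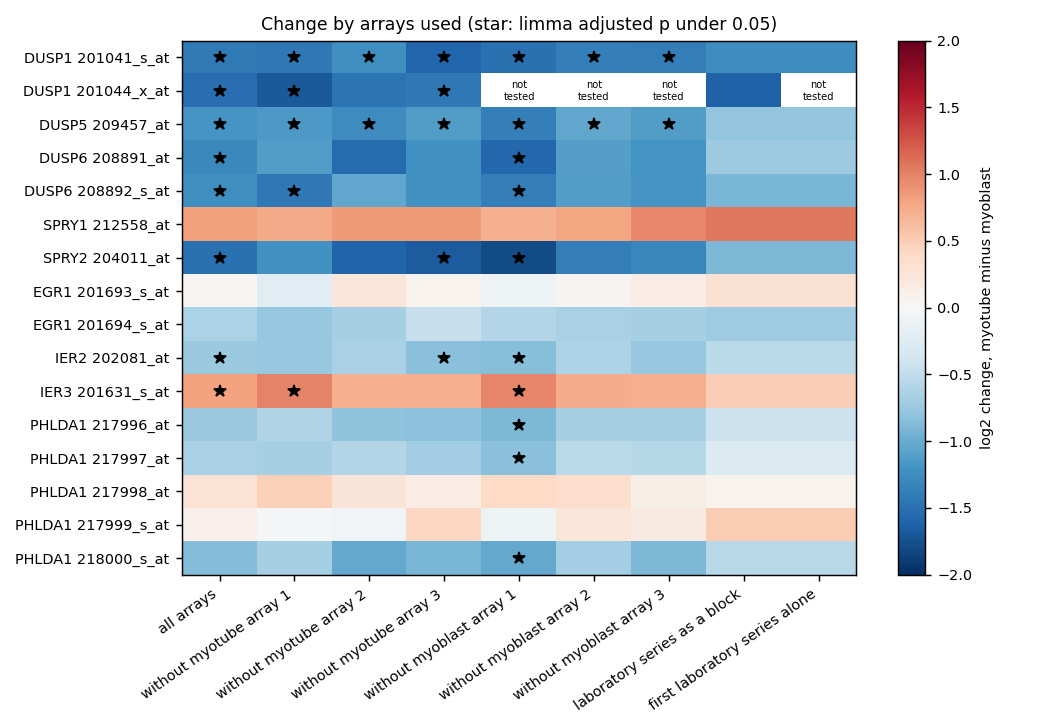
Log2 change (colour, blue for lower in myotubes) of the 16 tested probe sets by the arrays used, with a star where the limma adjusted p is under 0.05. Stars run through all 6 left-out columns for DUSP1 201041_s_at and DUSP5, and the 2 columns on laboratory series hold none.

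The rest of the pathway was read from the brightest tested probe set of each gene. Over all 8148 genes tested this way 6.74% fell and 5.41% rose, and the median change was 0.12. Of 9 other dual specificity phosphatases 1 rose and 8 did not pass (median -0.24). The riser was DUSP3, a small phosphatase of ERK and JNK, 4979.7 ± 1744 in myotubes and 2167.4 ± 529 in myoblasts (SD, n = 3 each, limma adjusted p = 0.0302), with 1 of its 3 tested probe sets called. Of 10 other Sprouty and receptor feedback genes 2 fell and 1 rose (median -0.06). SPRY4, another Sprouty, gave 2257.6, 2230.1 and 1814.1 in myotubes, against 4044.5, 4275.8 and 3652.5 in myoblasts (log2 -0.87 ± 0.19, limma adjusted p = 0.0177). RGS4, which quenches G protein signals, fell 4.41-fold with all 3 of its tested probe sets called, and the adaptor DOK1, which recruits a RAS inhibitor, rose 2.28-fold.

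Upstream of ERK, 4 of 17 growth factor ligands rose and 2 fell (median 0.57). VEGFA, a ligand of endothelial receptors, CSF1, the macrophage growth factor, and PDGFD, a ligand of the PDGF beta receptor, changed by 1.28 ± 0.21, 1.26 ± 0.24 and 1.19 ± 0.30. For VEGFA 3 of 4 tested probe sets were called. FGF5 and VEGFC changed by -1.19 ± 0.29 and -1.15 ± 0.17. Of 12 receptor tyrosine kinases 2 rose and 1 fell (median 0.35). PDGFRB rose 2.51-fold, FGFR1 1.77-fold (1 of 6 tested probe sets called), and AXL fell by 0.80 on the log2 scale (1 of 2 called). In the RAS to ERK relay 1 of 18 genes fell and 1 rose (median 0.22). MAP2K1, a kinase that activates ERK, gave 2243.2, 1951.4 and 2511.9 in myotubes, against 4735.6, 5908.4 and 5226.6 in myoblasts (log2 -1.18 ± 0.19, limma adjusted p = 0.00465). RPS6KA2, a kinase that ERK activates, rose 2.33-fold, with 1 of its 2 tested probe sets called, and its change of 1.22 shrank to 0.46 with laboratory series as a block (limma adjusted p = 0.384).

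In the parallel p38, JNK and ERK5 relays 0 of 18 genes passed by limma (median 0.07). At an unadjusted p under 0.05 there were 4 of the 18, beside 2574 of all 8148 tested genes. The smallest p-values were those of the p38 kinase MAPK11 and the JNK kinase MAPK10, with changes of 1.03 ± 0.30 and 1.00 ± 0.30 (limma adjusted p = 0.0547 and 0.0578). Serum response and ternary complex factors carry the ERK signal to early response promoters, and their list here also held CREB, ETS and NAB genes. Of its 10 tested genes 1 fell and 1 rose (median 0.09). ELK3, a ternary complex factor, gave 1365.9, 1031.8 and 2267.5 in myotubes, against 4848, 7438.8 and 8034.8 in myoblasts (log2 -2.02 ± 0.29, limma adjusted p = 0.00268), with 1 of 2 tested probe sets called. CREB3, a membrane-bound transcription factor of the CREB family, rose 1.58-fold. SRF itself changed by 0.19 (limma adjusted p = 0.771).

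Downstream, of 25 other immediate early genes 2 fell and 3 rose (median -0.26). The urokinase receptor PLAUR (2 of 3 tested probe sets called) and the AP-1 subunit FOSL1 fell by 1.48 and 1.39 on the log2 scale. KLF4, PLK2 and the protease gene PLAU rose by 1.39, 1.35 and 1.31. Of 19 later ERK targets 7 fell and 2 rose (median -0.24). The largest falls were those of ODC1, the first enzyme of polyamine synthesis, and of the chromatin proteins HMGA1 and HMGA2, at -1.75 ± 0.21, -1.67 ± 0.30 and -1.54 ± 0.21. The cyclin CCND1 was among the 7, at -1.35 (limma adjusted p = 0.0191), and at -0.69 with laboratory series as a block (limma adjusted p = 0.284). The p53 target PHLDA3 and the activin antagonist FST rose, by 1.09 and 0.72. For FST 1 of 2 tested probe sets was called, as for PHLDA2, which fell. Dividing cell markers fell in the same arrays, and the part of that in the falls was not tested. Of the 31 genes of these lists that passed with all arrays, 6 passed with laboratory series as a block (VEGFC, AXL, PLAUR, HMGA2, ODC1 and SLC20A1) and 25 did not, while all 31 kept their sign. Of the 25, 11 had a change over 1.5 times smaller: RPS6KA2, CCND1, FGF5 (-0.50), PDGFD (0.55), FGFR1 (0.43), FST (0.38), DOK1 (0.71), KLF4 (0.91), RGS4 (-1.42), GAS6 (0.70) and PHLDA2 (-0.97). MAP2K1, SPRY4 and ELK3, whose changes moved less, had limma adjusted p-values of 0.0676, 0.108 and 0.0612 there. On the probe sets of RGS4, ELK3, KLF4 and PLK2, 1 array of the dimmer group was at background.

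**Figure D4:**
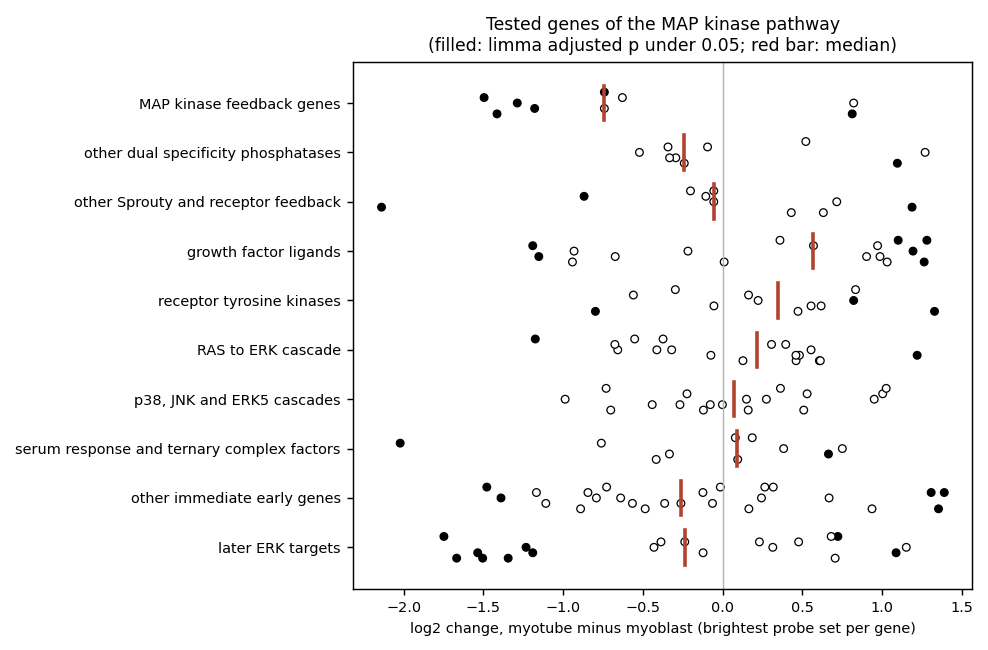
Log2 change, myotube minus myoblast, of each tested gene (brightest probe set) of the feedback genes and 9 pathway lists, with filled points at a limma adjusted p under 0.05 and red bars at medians. The feedback genes have 5 filled points below 0 and 1 above, and the p38, JNK and ERK5 list has none.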

How the data were processed

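Biotin-labelled total RNA of 3 myotube and 3 myoblast samples had been hybridised to HG-U133A arrays. The authors deposited 1 linear intensity for each probe set, its signal. Per the submitters' processing notes it comes from MAS5; the version and scaling target are not given in the sources used here. Trimmed array means lay between 1499.7 and 1499.8. Groups came from titles, and for myoblast array 3 from its description. Platform annotation of 2016 named the genes: 19065 probe sets had 1 symbol, 1043 several and 2107 none.

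Of 22283 probe sets, 68 controls and 48 of Y-linked genes or XIST were left out, as were probe sets whose mean lay below the 40th percentile (a signal of 474.57). A probe set dim in myotubes passes through its myoblast signals. Values were log2(signal + 197), the 25th percentile. Tests were two-sided and used lmFit and eBayes with trend from limma 3.58.1, in R 4.3.3 with statmod 1.5.0, with Benjamini-Hochberg adjustment over 13300 probe sets. The fit was tested on simulated data. Figures used matplotlib 3.10.9.

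The members and lists were chosen with earlier results of these data known. Named were all members and, per list, up to 3 called genes per direction, or the 2 with the smallest p. CCND1, SRF, SLC20A1, GAS6 and PHLDA2 fall outside that rule and were named after their values were seen. List symbols without a probe set of their own were not analysed here. The samples were not treated as paired in the main fit. Deviations of same-numbered arrays correlated at 0.249, -0.184 and 0.38, which with 3 arrays per group cannot settle whether the numbers pair them. Alternatives were the pseudocount, filter, scaling, eBayes settings, blocks, averaging and leaving out arrays. The number of arrays limits the precision.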

Additional observations from a re-analysis of the deposited data

How the results depend on the processing

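The direction of the 8 calls was the same in every alternative in which they were tested. For DUSP1 201044_x_at these were 13, against 19 or 20 for the others. What changed was how many passed. Over all probe sets 1513 were called, against 919 by eBayes without trend, 401 with chip lot as a random block, 338 with laboratory series as a block, 193 in the first laboratory series alone, 581 with myoblast arrays 2 and 3 averaged, and 488 to 3464 when 1 array was left out. The replicate block gave 2313, and 10 of the 16 probe sets of the feedback genes. Of those 16, 8 were called with all arrays, 5 by eBayes without trend, 2 with chip lot as a random block, 2 with myoblast arrays 2 and 3 averaged, and 2 to 10 with 1 array left out. By limma 0 passed with laboratory series as a block (6 at an unadjusted p under 0.05, beside 2330 of all 13300 probe sets). The first series alone holds 1 myoblast array, taken to vary as the myotubes do. Its changes equalled those with the block, so the 2 fits are not separate checks. A pair of uncalled probe sets changed sign. EGR1 201693_s_at gave -0.182 after quantile normalization, -0.001 with 75th percentile scaling and -0.218 to 0.238 with 1 array left out. PHLDA1 217999_s_at gave -0.041 after quantile normalization and -0.101 to 0.411 with 1 array left out. The cause was not tested. Averaging the probe sets of each gene called 6 of 9 genes, as did taking the brightest. IER3 lost its call with 75th percentile scaling (limma adjusted p = 0.0561) and IER2 after quantile normalization (0.0606). Signals at or below background limit DUSP1 201044_x_at, SPRY1, SPRY2, DUSP4 and all 3 probe sets of DUSP6. They also limit EGR1 201693_s_at and PHLDA1 217999_s_at and 218000_s_at.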

Other observations

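Over the 6 arrays, the profiles of log2 signal most like that of SPRY2 were those of PHLDA1 (217996_at, Pearson's r = 0.998), PSME3 (0.996) and MBD2 (0.996). For DUSP6 they were TSPYL4 (0.998), UBE2V2 (0.998) and SYNCRIP (0.995), and for EGR1 they were KIF2C (0.991), SZRD1 (0.991) and TMEM164 (0.987). Among the feedback genes themselves, DUSP1 ran closest to IER2 (0.970) and DUSP5 to DUSP6 (0.970). IER3 and SPRY1, of which the second was not called, ran closest to each other (0.656). These are descriptions over 6 arrays in 2 groups, so any genes that differ between the groups correlate through that difference.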
